A study of Mus musculus with 212 samples.

Results

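Transcripts of proteasome subunit genes were measured, by sequencing of poly(A) RNA, in cultured mouse skin fibroblasts that lacked the clock gene Bmal1 (Bmal1-/-) or were wild type (WT). Members were the genes whose mouse symbol is Psm, a letter from a to g and a number, with a mean of at least 1 FPKM (a read level per transcript length and per sequencing depth). Of 47631 genes in the table, 48 had such a symbol and 46 passed the mean. Psma8 and Psmb11, which encode the testis and thymus versions of core subunits, averaged 0.000212 and 0.0094 FPKM and were left out. Cells of both genotypes were C57BL/6, were grown to confluence, and received 100 nM dexamethasone for 15 min before harvests that began 48 h later. The 10 time courses were Bmal1-/- and WT cells in courses named AM and PM (17 libraries each, CT0 to CT48 every 3 h) and in courses at 27, 32 and 37 °C (24 libraries each, CT0 to CT46 every 2 h). CT is the time label in hours. Which part of Bmal1 was deleted, whether wells were pooled, and how many cell preparations or lines each genotype came from is not given in the labels, nor is the meaning of AM and PM. Each time point had 1 library per genotype, so the spread below is over the time points of a course, and p-values measure the spread between libraries and not between cell preparations. Because each temperature and each genotype was its own set of cultures, an effect of the culture set cannot be told apart from that of temperature or genotype.

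The proteasome is the protease complex that degrades ubiquitin-tagged proteins. Its 20S core is a barrel of alpha rings, which gate the entry, around beta rings, in which PSMB5, PSMB6 and PSMB7 carry the catalytic sites. Interferon-responsive cells replace these with PSMB8 (for PSMB5), PSMB9 (for PSMB6) and PSMB10 (for PSMB7) to form the immunoproteasome, which is known for making peptides for MHC class I. The 19S cap unfolds substrates with its PSMC ATPases and recognises and trims ubiquitin chains with PSMD subunits. The core can instead be capped by PA28 (PSME1 with PSME2, or PSME3) or PA200 (PSME4), and it is built with the chaperones PSMG1 to PSMG4, while PSMD5, PSMD9 and PSMD10 help to build the base of the cap. Fibroblasts carry mainly the constitutive core when no interferon is present.

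The promoters of the constitutive catalytic genes Psmb5 and Psmb6, their immunoproteasome counterparts Psmb8 and Psmb9, and Psme1 are printed because these genes moved in opposite directions with temperature or differed most between the genotypes. Each window runs from 250 bases before to 50 bases after a start listed by RefSeq, 5′ to 3′ on the strand of the gene, on GRCm38.p6. The gene positions given further on come from GENCODE, whose outermost start differs, so the windows of Psmb8, Psmb9 and Psme1 begin inside those positions. The windows lie at chr14:54617946-54618245 (minus strand) for Psmb5, chr11:70525107-70525406 (plus) for Psmb6, chr17:34197945-34198244 (plus) for Psmb8, chr17:34187281-34187580 (minus) for Psmb9 and chr14:55578244-55578543 (plus) for Psme1. Capitals mark matches, on either strand, to the searched motifs.
Psmb5: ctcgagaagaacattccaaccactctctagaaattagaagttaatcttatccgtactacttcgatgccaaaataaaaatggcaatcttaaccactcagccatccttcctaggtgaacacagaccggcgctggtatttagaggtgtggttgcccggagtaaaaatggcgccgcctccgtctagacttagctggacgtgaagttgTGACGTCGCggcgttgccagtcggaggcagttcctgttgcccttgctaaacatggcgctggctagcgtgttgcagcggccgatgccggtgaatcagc
Psmb6: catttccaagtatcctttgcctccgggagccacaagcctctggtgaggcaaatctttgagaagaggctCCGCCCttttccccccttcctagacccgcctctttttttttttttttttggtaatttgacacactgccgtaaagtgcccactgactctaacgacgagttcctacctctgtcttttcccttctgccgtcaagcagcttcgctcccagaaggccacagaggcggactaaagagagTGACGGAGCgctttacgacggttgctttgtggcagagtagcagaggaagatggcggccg
Psmb8: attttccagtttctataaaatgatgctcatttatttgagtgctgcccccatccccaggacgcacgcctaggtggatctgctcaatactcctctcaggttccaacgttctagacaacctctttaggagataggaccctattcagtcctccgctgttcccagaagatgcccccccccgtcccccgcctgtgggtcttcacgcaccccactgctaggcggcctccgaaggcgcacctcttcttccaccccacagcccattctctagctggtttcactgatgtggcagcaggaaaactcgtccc
Psmb9: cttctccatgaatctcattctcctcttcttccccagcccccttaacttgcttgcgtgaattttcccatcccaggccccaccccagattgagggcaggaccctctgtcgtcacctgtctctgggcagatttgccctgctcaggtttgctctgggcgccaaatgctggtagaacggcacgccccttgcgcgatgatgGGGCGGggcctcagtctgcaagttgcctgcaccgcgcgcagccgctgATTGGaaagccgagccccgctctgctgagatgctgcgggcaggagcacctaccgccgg
Psme1: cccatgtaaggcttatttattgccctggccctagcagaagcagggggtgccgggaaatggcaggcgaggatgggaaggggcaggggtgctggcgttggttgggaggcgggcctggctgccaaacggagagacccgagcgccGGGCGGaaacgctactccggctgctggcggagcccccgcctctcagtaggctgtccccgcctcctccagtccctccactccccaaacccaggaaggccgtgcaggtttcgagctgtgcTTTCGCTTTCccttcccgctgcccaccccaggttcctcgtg
The motifs searched were TGACNNNGC (core of the antioxidant response element), CCAAT (NF-Y), CCGGAAG (ETS factors), GAAA repeated after any 2 bases (interferon-stimulated response element), CACGTG (E-box, the CLOCK and BMAL1 motif), GGGCGG (Sp1) and TGACGTCA (CRE). The first and the last share letters and can overlap. The Psmb5 window held TGACGTCGC and the Psmb6 window TGACGGAGC, both matches to the antioxidant response element core, and the Psmb6 window also held an Sp1 match. The Psme1 window held an interferon-stimulated response element match (TTTCGCTTTC, on the opposite strand) and an Sp1 match. The Psmb9 window held an NF-Y and an Sp1 match, and the Psmb8 window held none of these letters. Windows were present for 39 of 46 members, 42 windows in all. The ETS motif was in 35.7% of the member windows, against 8.86% of all 32851 windows, and the Sp1 motif in 57.1% against 35.7%. The interferon-stimulated motif was in 11.9% against 3.44%, the antioxidant core in 14.3% against 12.4%, the E-box in 9.52% against 7.15%, NF-Y in 31% against 37.4%, and CRE in 0% against 1.79%. A match describes the letters only.

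Estimated depth per library ran between 9.87 and 32.3 M reads (median 23.6 M), with the shallowest in WT AM at CT36. Summed fibroblast markers (10 genes, such as the collagen gene Col1a1) reached 7913 to 23443 FPKM per library, and their levels by group stand beside the comparisons. Arntl, the gene symbol of Bmal1, was read in both genotypes (means of 5.79 to 8.01 FPKM per Bmal1-/- course and 4.97 to 7.36 FPKM per WT course), so its level did not check the genotype labels. The pair labelled CT14 at 27 °C went against its labels and was left out, which leaves 210 libraries. In 4 Bmal1-/- libraries at 37 °C (CT16, CT18, CT20 and CT22) the median member stood 0.12 to 0.26 log2 units above its course median, with 41 to 44 of 46 members above, while genes of the same level range stood 0.04 to 0.08 above. Psmd13, a lid subunit of the 19S cap, had single high values of 326 FPKM in Bmal1-/- at 32 °C CT16 (course median 56.7) and 288 and 226 FPKM in WT at 32 °C CT36 and CT20 (course median 68.9). The Bmal1-/- library at 37 °C CT8 stood 0.15 above (39 of 46 members), while genes of the same level range stood 0.06 above. Calls that were lost, and counts that moved by over 1.5 times, when these libraries were left out are given with and without them.

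The members spanned a 30.5-fold range of mean levels, between 9.85 FPKM for Psmb9 and 301 FPKM for Psmb4, a beta ring subunit. The beta ring genes had the highest median of a class (111 FPKM over 7 genes), followed by the alpha ring (71.7 FPKM, 7 genes), the 19S ATPases (69 FPKM, 6 genes) and the 19S non-ATPases (59.2 FPKM, 11 genes). The immunoproteasome genes (28 FPKM, 3 genes), the activators and the inhibitor (25.1 FPKM, 5 genes) and the assembly chaperones (18.1 FPKM, 7 genes) lay lower. Subunits of the same ring did not share a level on this per-length scale: Psma3 averaged 23.3 FPKM and Psma7 155 FPKM, both of the alpha ring. The coefficient of variation over the time points of a course had a median over members of 5.06 to 10.9%, against 7.74 to 11.1% for the 7397 genes in the same range of levels.

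At 27 °C, against 37 °C, genes of the constitutive core and of the 19S cap were higher in both genotypes, and the immunoproteasome genes Psmb8 and Psmb9 were lower. A level difference was called where the adjusted p (limma, all genes tested) was under 0.05 and the change was 1.5-fold or more on the log2(FPKM + 1) scale. In Bmal1-/- cells 29 of 46 members were called higher and 2 lower, where 23.9% and 10.1% of all 13031 genes tested were called. In WT cells 31 were called higher and 2 lower, where 24.9% and 11.8% of all genes were. Without the Bmal1-/- 37 °C libraries at CT16 to CT22, with or without CT8, the counts were 31 higher and 2 lower in Bmal1-/-. The same 27 members were called higher and the same 2 lower in both genotypes. The members' median log2 fold change was 0.66 in Bmal1-/- and 0.78 in WT cells, beside 0.21 for all genes in each. After median-of-ratios scaling, which puts the all-gene medians at 0.00, the members' medians were 0.42 and 0.54. The calls were then 11 higher and 2 lower in Bmal1-/- (13.5% and 15.5% of all genes) and 19 higher and 2 lower in WT (14.7% and 17.7%). The all-gene split was 3110 higher and 1312 lower in Bmal1-/- and 3241 and 1538 in WT, and with this scaling 1765 and 2021 in Bmal1-/- and 1912 and 2309 in WT.

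Markers of cell types were read beside these counts. The 10 fibroblast markers summed to 9568 to 12050 FPKM at 27 °C in Bmal1-/-, against 12561 to 19396 FPKM at 37 °C, and to 7913 to 9462 FPKM at 27 °C in WT, against 11909 to 14831 FPKM at 37 °C. Of them, 2 were called higher and 3 lower at 27 °C in Bmal1-/- and 0 and 6 in WT (medians -0.27 and -0.85). The 3 adipocyte markers summed to 0.754 to 2.81 FPKM at 27 °C in Bmal1-/-, against 9.46 to 15.9 FPKM at 37 °C, and to 0.347 to 1.95 FPKM in WT, against 1.45 to 3.64 FPKM. Only 1 of these 3 averaged 1 FPKM or more over the temperature courses. The part of these markers in the temperature results was not tested.

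**Figure D1:**
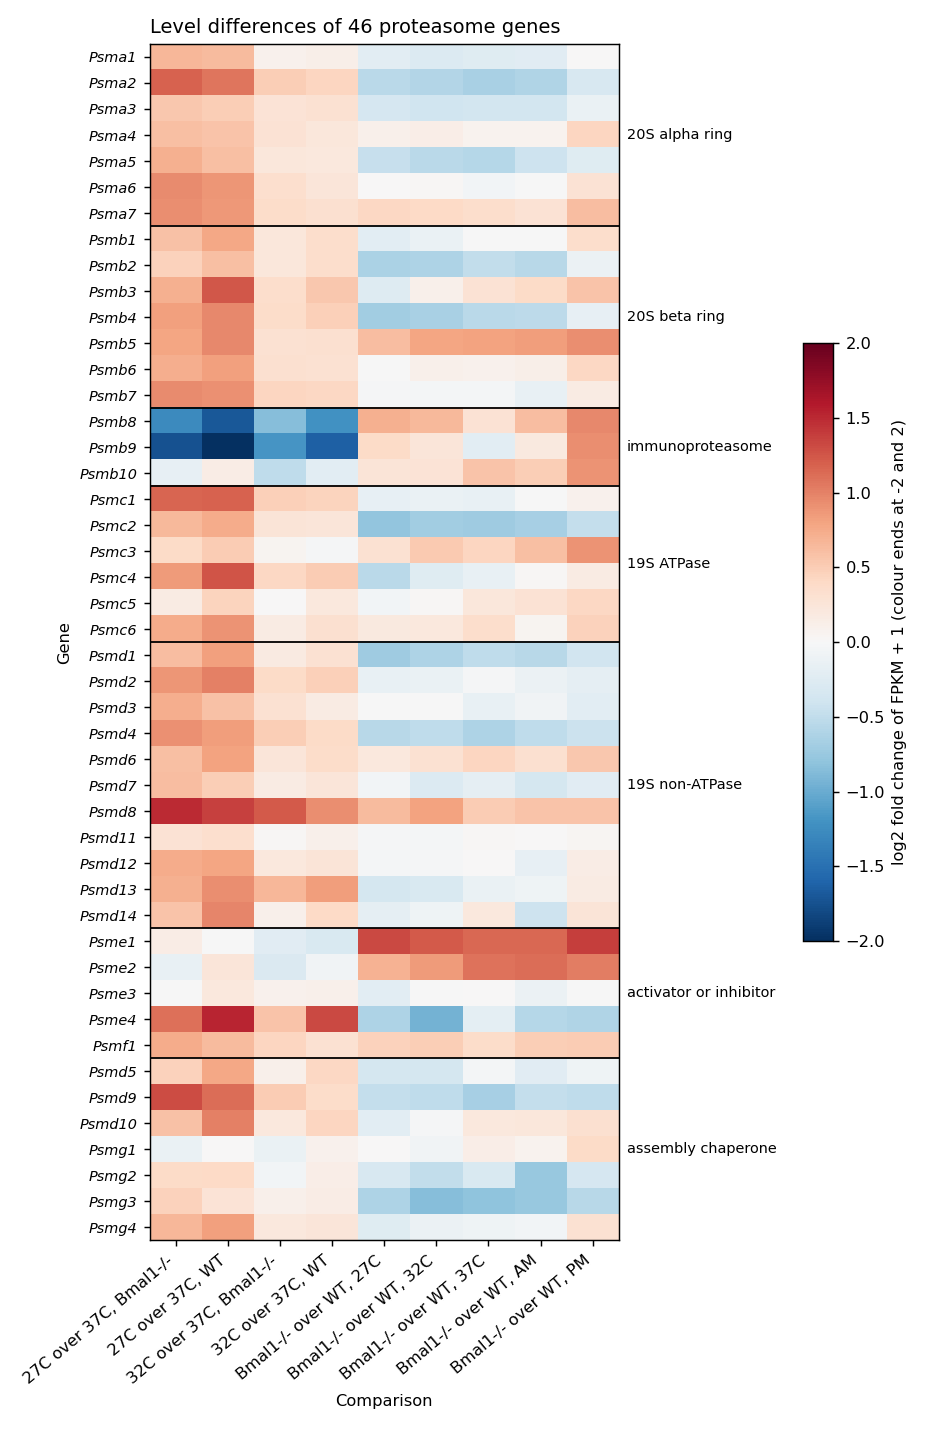
Each row is a member and each column a comparison, and the colour is the log2 fold change of FPKM + 1 (red higher and blue lower in the group named first). In the 27 °C columns the core and cap rows are red (without scaling, which turns Psmc5 in Bmal1-/- to -0.08) while Psmb8 (-1.28 in Bmal1-/-, -1.70 in WT) and Psmb9 (-1.74 and -2.35) are blue, and in the genotype columns Psme1 is red throughout (1.14 to 1.39).

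By adjusted p alone, all 7 alpha ring, all 7 beta ring, all 6 ATPase and all 11 non-ATPase genes were higher at 27 °C than at 37 °C in each genotype, but with median-of-ratios scaling Psmc5 turned to -0.08 and Psmd11 was at 0.06 (adjusted p 0.111) in Bmal1-/-. In all, 40 members in Bmal1-/- and 42 in WT were higher by that rule, where 57.4% and 57.2% of all genes were, and 5 and 2 were lower (28.4% and 29.9%). Psmd8, a lid subunit of the 19S cap on chromosome 7 (29174188 to 29180701, GRCm38 as for all gene positions here), had the largest rise in Bmal1-/- cells. Its lowest, median and highest values were 212, 302 and 342 FPKM at 27 °C in Bmal1-/-, against 84.4, 102 and 135 FPKM at 37 °C (log2 fold change 1.49 ± 0.03 SE, adjusted p 3.54e-82). In WT they were 150, 194 and 217 FPKM at 27 °C, against 62.1, 70.4 and 90.5 FPKM at 37 °C (1.37 ± 0.03). All libraries at 27 °C lay above all libraries at 37 °C in both genotypes.

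Psme4, which encodes the activator PA200, had the largest rise in WT cells. In WT it was at 33.8, 41.8 and 53.6 FPKM (lowest, median and highest) at 27 °C, against 10.8, 13.7 and 16.4 FPKM at 37 °C (1.52 ± 0.04 SE, adjusted p 3.05e-71). In Bmal1-/- it was at 21.2, 26.6 and 34.8 FPKM at 27 °C, against 8.82, 12.3 and 14 FPKM at 37 °C (1.09 ± 0.04). The ranges did not overlap in either genotype. Psmd9, a base chaperone, was at 37.7, 46.8 and 54.2 FPKM at 27 °C in Bmal1-/-, against 13.7, 17.9 and 23.2 FPKM at 37 °C (1.30 in Bmal1-/-, 1.12 in WT). Psma2, of the alpha ring, was at 127, 147 and 164 FPKM at 27 °C in Bmal1-/-, against 56.3, 63.9 and 84.6 FPKM at 37 °C (1.18, and 1.07 in WT). Both were without overlap.

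Among the ATPases, Psmc1 was at 90.8, 107 and 120 FPKM at 27 °C in Bmal1-/-, against 42.8, 45.5 and 55.4 FPKM at 37 °C (1.17, and 1.18 in WT). Psmc4 was at 103, 116 and 130 FPKM at 27 °C in WT, against 41.3, 48.9 and 57.1 FPKM at 37 °C (2.39-fold on the FPKM + 1 scale, and a log2 fold change of 0.86 in Bmal1-/-). Neither overlapped in these courses, nor did the beta ring gene Psmb3 in WT, with 41.4, 60.1 and 73 FPKM at 27 °C, against 20.7, 24.6 and 29.5 FPKM at 37 °C (2.38-fold). In Bmal1-/- the Psmb3 ranges of 39.3 to 58.8 FPKM at 27 °C and 23.2 to 44.3 FPKM at 37 °C did overlap (0.70).

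Psmf1, which encodes the inhibitor PI31, was at 35.3, 40.3 and 43.1 FPKM at 27 °C in Bmal1-/-, against 20.3, 23.2 and 27.6 FPKM at 37 °C (0.74), and it rose by 0.63 in WT. The PA28 genes moved little: Psme1 differed by 0.15 in Bmal1-/- and -0.01 in WT, Psme2 by -0.14 and 0.23, and Psme3 by -0.00 and 0.21, none of them called, and with the scaling above Psme1 in Bmal1-/- (-0.09) and Psme3 in WT (-0.02) changed sign. Psme3 had medians of 34.7 FPKM at both temperatures in Bmal1-/-, and of 39.7 FPKM at 27 °C and 34.7 FPKM at 37 °C in WT. Counted by ranges, 27 members in Bmal1-/- and 33 in WT had every 27 °C library above every 37 °C library, where 23.1% and 25.1% of all genes did, and 2 lay wholly below in each (8.29% and 10.1% of all genes).

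The catalytic pairs split. Psmb5, at chromosome 14 (54614119 to 54618022), was at 61.1, 71.2 and 85.3 FPKM at 27 °C in Bmal1-/-, against 34.1, 40.6 and 56.9 FPKM at 37 °C (0.78 ± 0.04 SE). In WT it was at 28.6, 47.9 and 53.9 FPKM, against 20.5, 23.2 and 29.2 FPKM (0.96 ± 0.04), and the overlap there came from the value of 28.6 FPKM at CT30. Psmb6 had medians of 204 FPKM at 27 °C and 118 FPKM at 37 °C in Bmal1-/- (0.73) and of 203 and 114 FPKM in WT (0.83). Psmb7 had medians of 103 FPKM at 27 °C and 53 FPKM at 37 °C in Bmal1-/- (0.94) and of 105 and 55.3 FPKM in WT (0.92). The ranges of Psmb6 and Psmb7 did not overlap in either genotype.

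Psmb8, at chromosome 17 (34197721 to 34201454), went the other way. It was at 13.3, 20 and 24.2 FPKM at 27 °C in Bmal1-/-, against 37.9, 46.3 and 66.7 FPKM at 37 °C (-1.28 ± 0.04, adjusted p 3.44e-55). In WT it was at 6.4, 10.4 and 23.5 FPKM, against 25.8, 42.1 and 59.5 FPKM (-1.70 ± 0.04, adjusted p 1.59e-68). The ranges did not overlap in either genotype.

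Psmb9, its neighbour on chromosome 17 (34181987 to 34187764), was at 1.75, 3.4 and 6.04 FPKM at 27 °C in Bmal1-/-, against 9.96, 14 and 18.9 FPKM at 37 °C (-1.74 ± 0.09, adjusted p 3.31e-40). In WT it was at 0.614, 1.97 and 7.69 FPKM, against 9.11, 15.9 and 25.1 FPKM (-2.35 ± 0.09, adjusted p 6.79e-53). These ranges did not overlap either, and the lowest WT value at 27 °C was under 1 FPKM, where the log2(FPKM + 1) scale understates a change. Psmb10 on chromosome 8 changed less and was not called. It was at 23.6, 33.2 and 39.7 FPKM at 27 °C in Bmal1-/-, against 29.8, 36.3 and 52.3 FPKM at 37 °C (-0.17). In WT it was at 19.3, 27.7 and 40 FPKM, against 18.7, 23.7 and 36.4 FPKM (0.15, and -0.09 after the scaling). The Psmb10 ranges overlapped in both genotypes. By adjusted p alone, without the scaling, Psmb10 was lower at 27 °C in Bmal1-/- and higher in WT. The 3 immunoproteasome genes made up 12.8 ± 1.23% (SD, n = 23) of the summed FPKM of the 6 catalytic genes in Bmal1-/- at 27 °C, 17.3 ± 1.23% (n = 24) at 32 °C and 31.4 ± 1.7% (n = 24) at 37 °C. In WT the shares were 10.5 ± 2.41%, 14.7 ± 1.71% and 29.5 ± 4.41%. The pairs were unlike in this. At 37 °C the median ratio of Psmb8 to Psmb5 was 1.18 in Bmal1-/- and 1.73 in WT. That of Psmb10 to Psmb7 was 0.70 and 0.43, and that of Psmb9 to Psmb6 0.11 and 0.13. In bulk RNA, fewer cells expressing a gene and less RNA per cell cannot be told apart.

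**Figure D2:**
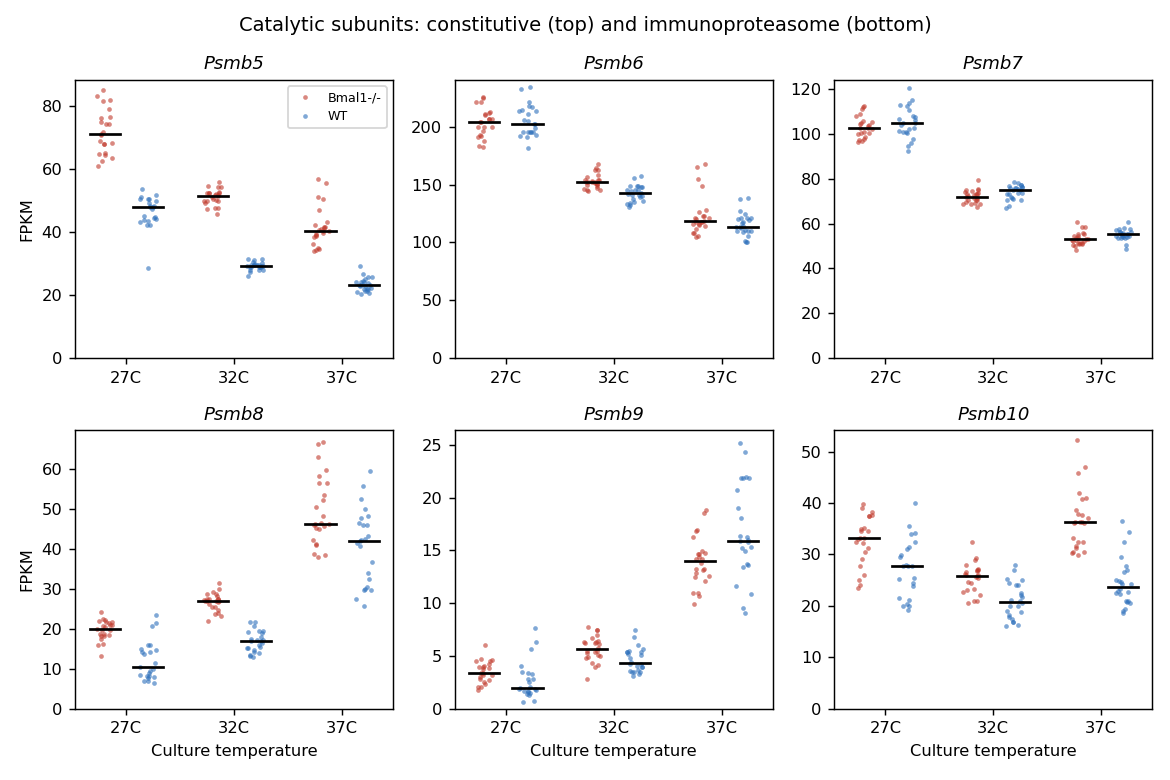
Points are libraries and bars course medians, in FPKM, by temperature, with Bmal1-/- left of WT. The constitutive genes in the top row fall with rising temperature, Psmb8 and Psmb9 rise, and Psmb10 has medians between 20.7 and 36.3 FPKM with no such order.

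The 8 leukocyte and antigen-presenting cell markers were read beside the immunoproteasome genes. Their summed level was 18.8 to 43 FPKM at 27 °C in Bmal1-/- and 24 to 39.9 FPKM in WT, against 1.86 to 5.48 and 1.86 to 6.47 FPKM at 37 °C, opposite to Psmb8 and Psmb9. Most of that sum was Cd68, a lysosomal protein gene, with medians of 24.4 and 30.4 FPKM at 27 °C. Among the lowest of these markers, Ptprc and Adgre1 did not exceed 0.0151 FPKM in any library at 27 or 37 °C. At 27 °C, 5 of the 8 markers in Bmal1-/- and 6 in WT were under 1 FPKM in every library. The rest, Cd68 among them, reached 1 FPKM or more in at least 1 library. Whether these markers had a part in the immunoproteasome results was not tested.

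At 32 °C, against 37 °C, Psmd8 was again higher and Psmb8 and Psmb9 lower, with smaller differences than at 27 °C. Psmb10 differed more than at 27 °C (-0.51 in Bmal1-/- and -0.22 in WT, not called without scaling). In Bmal1-/- cells 2 members were called higher and 2 lower (7.87% and 3.15% of all genes), and in WT cells 3 higher and 2 lower (8.96% and 4.44%). With median-of-ratios scaling 1 was called higher and 3 lower in Bmal1-/- (4.73% and 4.97%), with Psmb10 then among the lower. In WT the scaled counts were 3 and 2 (5.45% and 6.54%). The members' median log2 fold change was 0.23 in Bmal1-/- and 0.30 in WT, beside 0.13 for all genes in each. By adjusted p alone 36 members were higher in Bmal1-/- and 40 in WT (54.7% and 54.5% of all genes). Psmd8 was called at 1.22 in Bmal1-/- and 0.93 in WT, and Psmb8 (-0.85 and -1.20) and Psmb9 (-1.17 and -1.63) fell. Psme4 was at 31.2, 35.4 and 44.1 FPKM at 32 °C in WT, against 10.8, 13.7 and 16.4 FPKM at 37 °C (1.32 ± 0.04, called), and at 15.8, 18.1 and 20.9 FPKM in Bmal1-/-, against 8.82, 12.3 and 14 FPKM (0.57, not called). Psmd13 was called in both genotypes (0.67 and 0.84). Without the Bmal1-/- CT16 and WT CT36 libraries the value in Bmal1-/- was 0.57 and no longer called, and that in WT 0.75. Without the WT CT20 library as well it was 0.68 in WT, still called.

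Bmal1-/- cells, against WT, had more Psme1, Psme2 and Psmb5 transcript and less Psmg3 and Psme4. A genotype call also needed the same sign in every course averaged. In AM and PM, 6 members were called higher in Bmal1-/- and 2 lower, where 14.5% and 15.7% of all genes were. At the 3 temperatures 4 were called higher and 6 lower, where 13.6% and 15.8% of all genes were. Psme1, Psme2 and Psmb5 were higher and Psmg3 and Psme4 lower in both sets. Median log2 fold changes over members were 0.04 and -0.04, beside -0.00 and -0.02 for all genes.

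Markers also differed between the genotypes. The adipocyte markers summed to 7.47 to 15.2 FPKM in Bmal1-/- AM, against 0.421 to 2.62 FPKM in WT AM, to 12.8 to 24.7 FPKM in Bmal1-/- PM, against 0.747 to 2.22 FPKM in WT PM, and to 9.46 to 15.9 FPKM in Bmal1-/- at 37 °C, against 1.45 to 3.64 FPKM in WT. At 27 and 32 °C these sums overlapped between the genotypes. The 5 melanocyte and Schwann cell markers summed to 1.19 to 2.79 FPKM over the Bmal1-/- courses, against 3.45 to 21.9 FPKM over the WT courses. Of these 5, 4 stayed under 1 FPKM in every WT library in AM, at 27 °C and at 37 °C, 3 at 32 °C and 2 in PM. In each fit 1 of these 5 and 1 of the 3 adipocyte markers averaged 1 FPKM or more, so such a sum can rest mainly on 1 gene. The fibroblast marker sums had medians of 19180 (AM), 21800 (PM), 10846 (27 °C), 12802 (32 °C) and 16063 FPKM (37 °C) in Bmal1-/-, against 16900, 16826, 8612, 10994 and 13296 FPKM in WT. Counted by gene, more of these 10 markers went the other way. In AM and PM 2 were called higher and 4 lower in Bmal1-/- (median -0.42). At the 3 temperatures 1 was called higher and 4 lower (median -0.41). The 4 endothelial and 5 keratinocyte markers each stayed at or under 6.34 FPKM in sum in every library, but these sums also differed. Keratinocyte sums did not overlap between the genotypes in any course. They were lower in Bmal1-/- in AM (1.37 to 2.2 against 2.9 to 4.7 FPKM), PM and at 37 °C. At 27 °C (2.88 to 5.7 against 1.03 to 2.03 FPKM) and 32 °C they were higher in Bmal1-/-. Endothelial sums were lower in Bmal1-/- without overlap in AM (1.15 to 2.87 against 3.32 to 6.28 FPKM) and PM, and overlapped at the 3 temperatures. The 8 leukocyte and antigen-presenting cell markers summed to 3.08 to 6.57 FPKM in Bmal1-/- at 32 °C, against 6.71 to 15.9 FPKM in WT. In the other courses their sums overlapped. Only 1 of these 8 averaged 1 FPKM or more over the temperature courses. It was called lower in Bmal1-/- at 32 °C (-1.83) and 37 °C (-0.77), and not at 27 °C (-0.20). The part of all these markers in the genotype results was not tested.

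Psme1, a PA28 subunit at chromosome 14 (55578123 to 55581529), had the largest difference. Its lowest, median and highest values were 164, 184 and 242 FPKM in Bmal1-/- AM, against 65.9, 84.3 and 104 FPKM in WT AM, and 179, 213 and 226 FPKM in Bmal1-/- PM, against 64.2, 79.7 and 97.8 FPKM in WT PM. At 27 °C they were 220, 264 and 295 FPKM in Bmal1-/-, against 80.4, 106 and 145 FPKM in WT, at 32 °C 167, 197 and 244 FPKM against 71.2, 85 and 109 FPKM, and at 37 °C 192, 229 and 314 FPKM against 74.4, 105 and 141 FPKM. No Bmal1-/- library reached down to a WT library in any course. The log2 fold change was 1.27 ± 0.03 SE in AM and PM (adjusted p 8.68e-40) and 1.23 ± 0.02 at the 3 temperatures (adjusted p 1.26e-93).

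Its partner Psme2 lies on the same chromosome (55587441 to 55591113). Its course medians were 25 (AM), 29.4 (PM), 26.8 (27 °C), 23.3 (32 °C) and 29.2 FPKM (37 °C) in Bmal1-/-, against 10.9, 15, 15.8, 12.5 and 13.3 FPKM in WT. The ranges overlapped at 27 °C (20.1 to 32.4 FPKM in Bmal1-/-, 11.8 to 21.5 FPKM in WT) and in no other course. The log2 fold change was 1.07 ± 0.05 in AM and PM and 0.88 ± 0.03 at the 3 temperatures. This value is uncertain, since the near-identical copy Psme2b is listed at a mean of 89 FPKM and reads of the pair may have been split in the counting.

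Psmb5 was higher in Bmal1-/- at every time point of all courses and its ranges did not overlap in any. Its course medians were 51.9, 49.6, 71.2, 51.7 and 40.6 FPKM in Bmal1-/- (AM, PM, 27, 32 and 37 °C), against 29.1, 25, 47.9, 29.3 and 23.2 FPKM in WT (0.89 ± 0.03 in AM and PM, adjusted p 1.65e-37, and 0.74 ± 0.02 at the 3 temperatures). The other constitutive catalytic genes differed less: Psmb6 by 0.27 and 0.06 and Psmb7 by 0.00 and -0.04, none called. The Psmb7 average in AM and PM joins unlike courses. Its level was higher in Bmal1-/- at 1 of 17 time points in AM and at 16 of 17 in PM. For Psmb6 every Bmal1-/- library lay above every WT library in PM, while the ranges overlapped in AM.

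Among the immunoproteasome genes, the averages of AM and PM were called for Psmb8 (0.79 ± 0.04) and Psmb10 (0.69 ± 0.03), and the courses differed in size. By course, Psmb8 was called in AM (0.62) and PM (0.96), while Psmb10 (0.49 and 0.89) and Psmb9 (0.19 and 0.92) were called in PM alone of these. Psmb8 was at 42.3, 49.1 and 69.6 FPKM in Bmal1-/- AM, against 24.2, 31.5 and 46.3 FPKM in WT AM, and at 37.5, 46.6 and 54.2 FPKM in Bmal1-/- PM, against 17.1, 22.2 and 37 FPKM in WT PM. The ranges overlapped in AM and not in PM. Averaged over the 3 temperatures Psmb8 and Psmb10 did not pass 1.5-fold (0.55 and 0.36), and the average of Psmb9 was called in neither set (0.56 and 0.14). By temperature, Psmb8 was called at 27 °C (0.72) and 32 °C (0.65) and not at 37 °C (0.29). Psmb10 was at 0.25, 0.27 and 0.57 and Psmb9 at 0.39, 0.24 and -0.22, none called. Psmc3, an ATPase of the cap, was called in AM and PM (0.74), and Psmd8 at the 3 temperatures (0.65).

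**Figure D3:**
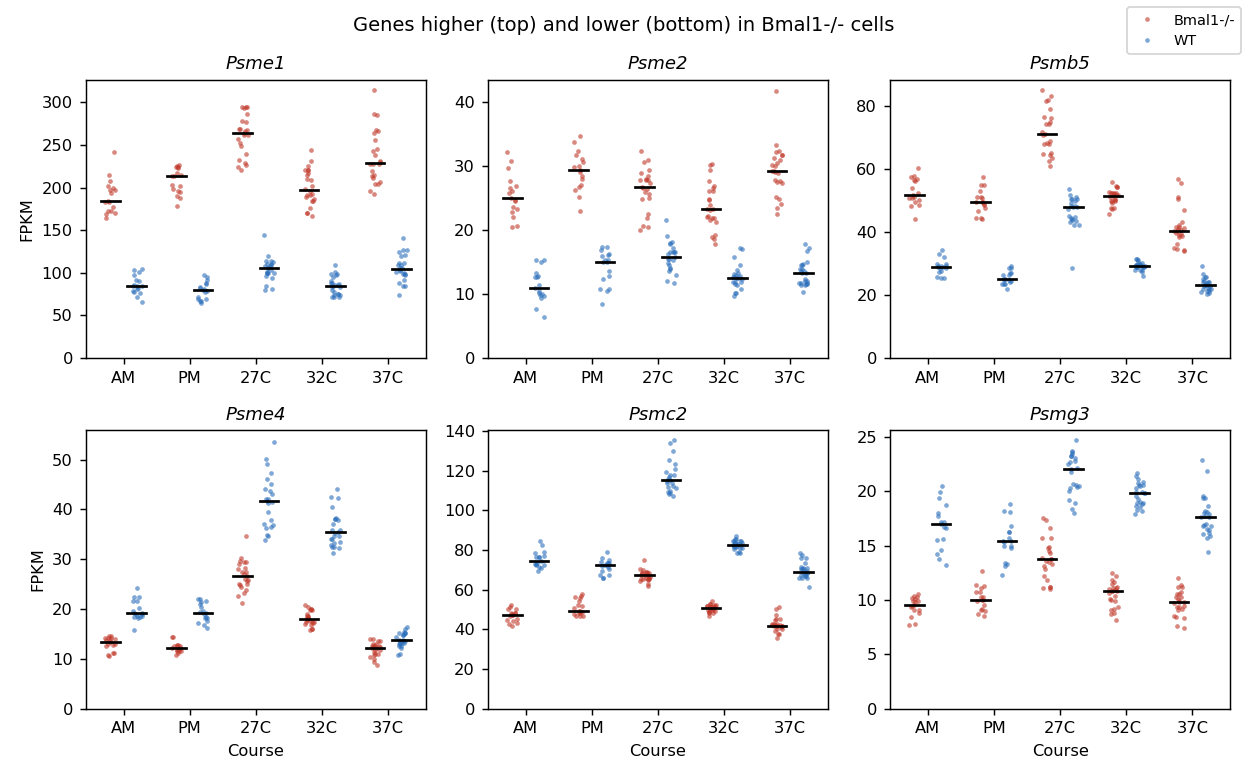
Points are libraries and bars course medians, in FPKM, for each course with Bmal1-/- left of WT. Psme1 and Psmb5 in the top row and Psmc2 in the bottom row do not overlap between the genotypes in any course, and Psme4 overlaps at 27 °C (21.2 to 34.8 FPKM in Bmal1-/- and 33.8 to 53.6 FPKM in WT) and at 37 °C (8.82 to 14 FPKM and 10.8 to 16.4 FPKM).

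Psmg3, an alpha ring chaperone, had course medians of 9.58, 9.99, 13.8, 10.8 and 9.85 FPKM in Bmal1-/-, against 17, 15.4, 22.1, 19.8 and 17.6 FPKM in WT. It was lower in Bmal1-/- at every time point (-0.66 ± 0.03 in AM and PM, adjusted p 1.49e-25, and -0.76 ± 0.02 at the 3 temperatures), with overlapping ranges only in PM among the 5 courses. Psme4 had course medians of 13.4, 12.2, 26.6, 18.1 and 12.3 FPKM in Bmal1-/-, against 19.2, 19.2, 41.8, 35.4 and 13.7 FPKM in WT (-0.59 ± 0.03 and -0.59 ± 0.02). By course it was at -0.57 in AM (not called), -0.61 in PM, -0.62 at 27 °C, -0.95 at 32 °C and -0.20 at 37 °C (not called). With median-of-ratios scaling its values were -0.58 in AM and PM and -0.57 at the 3 temperatures, both under 1.5-fold.

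Psmc2, an ATPase of the cap, was at 61.9, 67.3 and 75 FPKM at 27 °C in Bmal1-/-, against 107, 115 and 135 FPKM in WT. It was lower in Bmal1-/- at every time point of the 5 courses, with no overlap in any of them, and was called at the 3 temperatures (-0.73 ± 0.01, adjusted p 5.35e-90). In AM and PM the value was -0.58, just under 1.5-fold. Psmd1, a scaffold subunit of the cap, had medians of 48 FPKM at 27 °C, 34.9 FPKM at 32 °C and 30.9 FPKM at 37 °C in Bmal1-/-, against 78.7, 54.9 and 44.4 FPKM in WT (-0.61), again with no overlap in any of the 5 courses. Psmb4 (-0.62) and Psma2 (-0.59) were also called lower at the 3 temperatures. With median-of-ratios scaling 4 members were called lower there (15.2% of all genes), with Psma2 (-0.57) and Psme4 no longer called, and with the CT14 pair kept the count was also 4 (15.1%). In AM, 6 members lay wholly above WT and 10 wholly below (17.5% and 16.7% of all genes), and in PM 14 and 4 (17.5% and 18%). At 27 °C the counts were 4 and 8 (13.9% and 14.9%), at 32 °C 9 and 13 (17.7% and 19.4%) and at 37 °C 5 and 7 (13.9% and 15.9%).

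The change with temperature differed between the genotypes for Psmb9. The difference of the 27 °C against 37 °C changes, Bmal1-/- minus WT, was 0.61 ± 0.12 SE (adjusted p 4.91e-06), called higher for this 1 member of 46 and lower for none, where 8.01% and 6.13% of all genes were. It was 0.58, and not called, when the CT14 pair at 27 °C was kept. By adjusted p alone 10 members had a positive and 23 a negative difference (34.2% and 34.6% of all genes). Those included Psmb8 (0.43), Psmb10 (-0.32), Psmb3 (-0.55) and Psme4 (-0.42).

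Within the courses, falling time trends were found in Psmb8, Psmb9 and Psmb10 and in no other member. A trend was called where the adjusted p was under 0.05 and the change per 24 h was 25% or more of the lower level, and no member rose by that rule in any course. In WT cells 1 member was called falling in AM (Psmb9, -0.39 log2 per 24 h), 2 in PM (Psmb8 -0.48, Psmb9 -0.71), 3 at 27 °C (Psmb8 -0.82, Psmb9 -0.67, Psmb10 -0.43), 1 at 32 °C (Psmb10 -0.34) and 3 at 37 °C (Psmb8 -0.50, Psmb9 -0.56, Psmb10 -0.33). Falling calls over all genes were 1.42, 1.8, 4.24, 2.62 and 2.89% in those courses. In Bmal1-/- cells the 1 falling call was Psmb8 at 37 °C (-0.33), and it was not called without the CT16 to CT22 libraries. Falling calls over all genes were 0.526% in AM, 0.383% in PM, 2.03% at 27 °C, 0.645% at 32 °C and 1.77% at 37 °C in Bmal1-/-. The WT courses show the trend in single libraries: Psmb8 at 27 °C was at 23.5 FPKM at CT0, the highest of its course, and at its lowest, 6.4 FPKM, at CT44.

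The difference of the trends between genotypes was tested in the same fits, a test added after the data were seen. At 27 °C it was 0.60 ± 0.09 log2 per 24 h for Psmb8 (adjusted p 2.59e-08) and 0.49 ± 0.16 for Psmb9 (adjusted p 0.0284), Bmal1-/- minus WT, with 2.51% of all genes called positive. In PM it was 0.38 ± 0.09 for Psmb8 (adjusted p 0.00652) and 0.59 ± 0.14 for Psmb9 (adjusted p 0.00411), with 1.53% of all genes called positive, and in AM it was 0.43 ± 0.14 for Psmb9 (adjusted p 0.0418), with 1.57%. At 32 and 37 °C no member was called, where 2.04% and 3.62% of all genes were called positive. No member had a called negative difference in any course, where 0.864 to 2.09% of all genes did. With no filter on low values, 1 member was called at 27 °C (1.21% of all genes) and 0 in AM (0.648%).

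**Figure D4:**
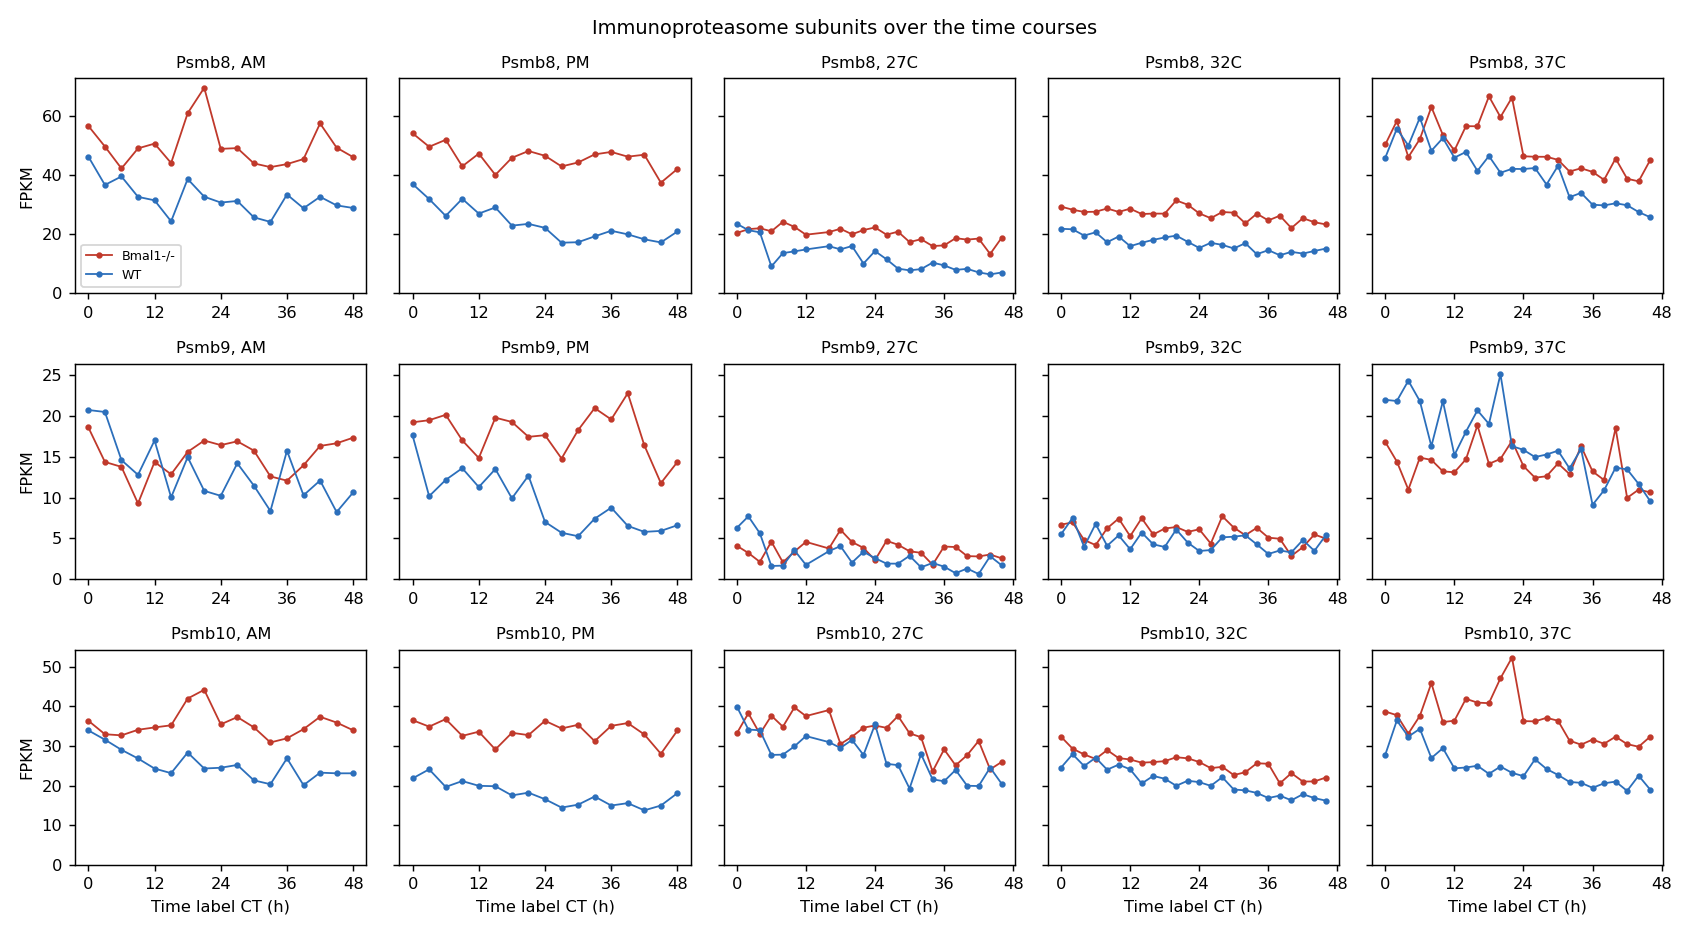
FPKM of Psmb8, Psmb9 and Psmb10 against the time label, with Bmal1-/- in red and WT in blue, for the courses AM, PM, 27, 32 and 37 °C. The WT lines decline over the course in most panels, with the steepest slope for Psmb8 at 27 °C (-0.82 log2 per 24 h). The Bmal1-/- lines in AM and PM have trends between -0.12 and 0.04 log2 per 24 h. In Bmal1-/- the only decline called is that of Psmb8 at 37 °C. Without a call, Psmb8 and Psmb9 at 27 °C and Psmb10 at 27, 32 and 37 °C also slope down in Bmal1-/-. At 32 and 37 °C no difference of trends between the genotypes was called.

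Rhythms of 24 h (moderated F test, adjusted p under 0.05) were called 16 times among members in Bmal1-/- courses and 3 times in WT courses. In Bmal1-/- these were 5 members in AM (3.4% of all genes), 2 in PM (3.02%), 3 at 27 °C (9.85%), 0 at 32 °C (2.06%) and 6 at 37 °C (8.46%). In WT they were 0 in AM (3.85%), 0 in PM (5.61%), 2 at 27 °C (2.15%), 0 at 32 °C (0.253%) and 1 at 37 °C (4.92%). Amplitudes, in log2 units between mid-level and peak, were 0.06 to 0.23. In Bmal1-/-, 15 of the 16 fitted peaks lay between CT15.3 and CT19.9. The 16 include the 6 calls at 37 °C, which were lost without the 4 raised libraries at CT16 to CT22. Psmd8 was called in AM (amplitude 0.19, adjusted p 0.0153) and at 27 °C (0.20, adjusted p 1.6e-05) and peaked near CT15.6 in both. Psmb6 (0.13) and Psmd9 (0.23) were also called in AM, and Psmc6 (0.15) and Psmd12 (0.09) in PM. At 37 °C the calls with the smallest p were Psmd7 (0.10), Psmf1 (0.12) and Psme1 (0.12). Without the 4 libraries at CT16 to CT22, no member was called at 37 °C in Bmal1-/- (0.353% of all genes), and 7 were called in WT at 27 °C (3.24%), where the same libraries enter the shared estimate of spread. Without CT8 as well the counts were 0 (0.475%) and 8 (3.56%). The WT count at 27 °C was 4 with another pseudocount (2.25%), with no filter (2.62%), with median-of-ratios scaling (2.36%) and with the CT14 pair kept (3.26%). In WT, Psmb7 (0.10) and Psmb8 (0.19) were called at 27 °C with peaks at CT18.9 and CT18.8, and Psmd8 at 37 °C (0.11). Whether rhythms differed between the genotypes was not tested.

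PM against AM gave no call at 1.5-fold in either genotype. In Bmal1-/- 2.99% of all genes were called higher and 1.8% lower, and in WT 6.3% and 1.92%. By adjusted p alone 28 members were higher and 4 lower in PM in Bmal1-/- (44.1% and 19.5% of all genes), while in WT 1 was higher and 26 lower (45% and 21.9%). The members' medians were 0.11 in Bmal1-/- and -0.10 in WT, beside 0.08 for all genes in each, and the largest fall in WT was in Psmb10 (-0.48). Under the other scaling the members' medians were 0.01 in Bmal1-/- and -0.22 in WT, and 2 members were called lower in PM in WT (3.07% of all genes).

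Genes that work with the proteasome were described from 3 lists. Of 25 other proteasome, ubiquitin and delivery genes, 12 were called higher and 1 lower at 27 °C than at 37 °C in Bmal1-/-, and 14 and 1 in WT (medians 0.52 and 0.64), where 23.9% and 10.1% of all genes were called in Bmal1-/- and 24.9% and 11.8% in WT. With median-of-ratios scaling the counts were 7 and 2 in each genotype (all genes 13.5% and 15.5%, and 14.7% and 17.7%). The largest changes were in Uchl5, a deubiquitinase of the cap (1.35 in Bmal1-/- and 1.24 in WT), Ufd1 (1.34 and 1.12) and Nploc4 (1.02 and 1.06), cofactors of the unfoldase VCP, and Adrm1, a ubiquitin receptor of the cap (0.86 and 1.21). Of 11 partners of the immunoproteasome in antigen presentation, 1 was called higher and 6 lower in each genotype (medians -0.69 and -0.73), beside the same all-gene shares. With the scaling 0 were higher and 7 lower in Bmal1-/- and 0 and 6 in WT. B2m, the MHC class I light chain, fell by 1.21 in Bmal1-/- and 0.74 in WT, and the peptide transporter gene Tap2 by 0.83 and 1.41. Its partner Tap1 was at 0.07 in Bmal1-/- and fell by 1.15 in WT. Of 12 regulators of proteasome genes, 3 were called higher and 1 lower in Bmal1-/- and 2 and 0 in WT, near or under the all-gene shares, and with the scaling 1 and 2 in Bmal1-/- and 1 and 3 in WT. Nfe2l1, the factor known to drive proteasome genes when the proteasome is inhibited, was at -0.22 and 0.11 and not called, and Ddi2, the protease that activates it, rose by 0.59 and 0.68. Between the genotypes, 2 of the 11 partners were called higher in Bmal1-/- and 1 lower in AM and PM (median -0.04, all genes 14.5% and 15.7%). At the 3 temperatures 2 were called higher and 4 lower (median -0.16, all genes 13.6% and 15.8%). The higher were Tap1 (0.94 in AM and PM, 1.28 at the 3 temperatures) and Tap2 (0.85 and 0.96). The lower included Tapbp, the peptide loading factor tapasin (-0.84 and -1.34). At 37 °C alone 0 partners were called higher and 2 lower (all genes 13.7% and 16.7%), with a largest value of 0.55.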

How the data were processed

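The authors deposited FPKM values for 212 libraries (poly(A) selection, stranded single-end kit, per the labels' protocols). TopHat2 2.1.0, Cuffdiff and GRCm38 are named in the submitters' processing notes; annotation and settings are not given here. Whether the scaling between libraries went beyond mapped reads is not given either. Symbols came from a table of gene names (47217 IDs matched) and gene positions from a GENCODE annotation of GRCm38. Depth was estimated from the FPKM of 1 read in 1357 genes, of whose low values 94.1% were near whole reads.

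Values were analysed as log2(FPKM + 1) over genes averaging 1 FPKM or more in the fit, using R 4.3.3 and limma 3.58.1 (lmFit, eBayes with trend). The AM and PM courses (13307 genes) and the temperature courses (13031 genes) were fitted separately, with an intercept, linear time and a 24 h cosine and sine per course. P-values are two-sided and Benjamini-Hochberg adjusted over all genes tested. The method was tested on data simulated with normal noise. Rhythms of amplitude 0.2 log2 units were called for 57% of genes in Bmal1-/- AM and 64% in Bmal1-/- at 27 °C. For amplitude 0.4 the shares were 89% and 88%. Many rhythms of the size called here could thus be missed. Level differences of 1.6-fold were called for 92% of genes in AM and 91% at 27 °C. Alternatives covered pseudocount, filter, scaling, time terms, a time point block, and libraries left out. Members and lists were chosen with earlier results of these data known. Named are the catalytic pairs, activators and inhibitor, up to 4 called members with the largest rise and fall per contrast, up to 3 per rhythm or trend fit, and up to 4 genes per list; others named, such as Psmc3, Psma3, Psma7, Nfe2l1, Tapbp and Psmc2 in AM and PM, were chosen after their values were seen. Some genes of the lists are not reported here by name.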

Additional observations from a re-analysis of the deposited data

Results flagged for a closer look

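Effects under the same contrast differed between Bmal1-/- and WT cells for 2 members, by a test of the difference itself with both the adjusted p and the fold threshold. By adjusted p alone the temperature change differed for 33 members, 10 with a positive and 23 with a negative difference (34.2% and 34.6% of all genes). For Psmb9 the change at 27 °C against 37 °C was -1.74 in Bmal1-/- and -2.35 in WT, a difference of 0.61 on the log2 scale. It was 0.58 when the pair labelled CT14 at 27 °C was kept, which is under 1.5-fold. The linear trends, in log2 per 24 h, differed at 27 °C for Psmb8 (-0.22 in Bmal1-/-, -0.82 in WT, difference 0.60) and for Psmb9 (-0.19 and -0.67, difference 0.49). In AM they differed for Psmb9 (0.04 and -0.39, difference 0.43). In PM they differed for Psmb8 (-0.10 and -0.48, difference 0.38) and for Psmb9 (-0.12 and -0.71, difference 0.59). All 5 trend differences were positive, so that WT fell more. The trend test was added after the data were seen.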

How the results depend on the processing

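No called member named here changed direction under the alternatives run, while some uncalled members with values near 0 did with the scaling. With median-of-ratios scaling, members called higher at 27 °C against 37 °C were 11 in Bmal1-/- and 19 in WT (13.5% and 14.7% of all genes tested; shares of all genes follow each count below), those called higher at 32 °C in Bmal1-/- 1 (4.73%), those called lower in Bmal1-/- against WT in AM and PM 1 (15.4%), those lower in PM in WT 2 (3.07%), falling trends at 37 °C in Bmal1-/- 0 (1.63%), and rhythms 4 in WT at 27 °C (2.36%) and 0 in WT at 37 °C (5.28%). With no filter on low values rhythms were 3 in AM (0.888%), 1 in PM (1.14%), 1 at 32 °C (1.36%) and 2 at 37 °C (4.25%) in Bmal1-/-, with 4 at 27 °C and 0 at 37 °C (2.62% each) for WT, and positive trend differences were 1 at 27 °C (1.21%) and 0 in AM (0.648%). With a pseudocount of 0.1 FPKM rhythms were 4 in WT at 27 °C (2.25%) and falling trends 2 in WT at 32 °C (3.64%). With the CT14 pair kept, rhythms were 2 in Bmal1-/- at 37 °C (4.53%) and, among WT courses, 4 at 27 °C (3.26%) and 0 at 37 °C (1.24%), while the interaction was called higher for 0 members (7.71%). Without the Bmal1-/- 37 °C libraries at CT16 to CT22, chosen after seeing the data, rhythms were 0 there (0.353%) and 7 in WT at 27 °C (3.24%), and falling trends 0 at 37 °C in Bmal1-/- (1.24%). Without CT8 as well they were 0 (0.475%), 8 (3.56%) and 0. Without the high Psmd13 libraries, likewise chosen and with or without WT CT20, 1 member was called higher at 32 °C in Bmal1-/- (7.91%). The cause of these shifts was not tested. Time points paired the genotypes little. Same-label correlations of deviations ran between -0.09 and 0.22, with course medians of 0.02 to 0.08. A Bmal1-/- library correlated best with the WT library of its own label at 1 to 3 of the 17 to 24 time points of a course. With the time point as replicate block 6 members were higher and 2 lower in Bmal1-/- in AM and PM (14.5% and 15.7%). At the 3 temperatures 4 were higher and 7 lower (13.6% and 15.8%). With that block no genotype call count left its 1.5-fold range. Depth was estimated, so no counting interval is given, and low genes such as Psmb9 at 27 °C carry the most counting error.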

Other observations

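The pair at 27 °C and CT14 that was left out of the comparisons carried these values. Psme1 was at 106 FPKM in the library labelled Bmal1-/- and 262 FPKM in the library labelled WT, while the other 27 °C libraries ran between 220 and 295 FPKM in Bmal1-/- and between 80.4 and 145 FPKM in WT. Psmc2 was at 139 FPKM in the library labelled Bmal1-/- and 59.9 FPKM in that labelled WT, and Psmg3 at 25.8 and 10.3 FPKM. Each of these values lay nearer to the other genotype's range than to that of its label. Psmb8 was at 15.5 FPKM in the library labelled Bmal1-/- and 15 FPKM in that labelled WT.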
